A study of Mus musculus and Canis lupus familiaris with 12 samples.

Results

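The ID genes and the feedback genes of SMAD signalling were followed in osteosarcoma cells treated with omacetaxine (OMX), an alkaloid inhibitor of translation that acts on the ribosome during elongation. The 10 genes are Id1, Id2, Id3, Id4, Smad6, Smad7, Smurf1, Skil, Bambi and Tgif1. They were chosen by their symbols, with earlier results of these data known. They were read from the rows of the same name, ignoring case, among 78317 rows of the mouse table and 30424 rows of the dog table. The mouse table held a row for all 10 genes and the dog table for 9, with no row named ID2. A filter on low counts left 9 of them tested in the mouse line and 7 in the dog line.

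The cells were DLM8, a mouse osteosarcoma line, and Gracie, a dog osteosarcoma line, both recorded as wild type. In each line 3 libraries came from cells kept for 6 h with 50 nM OMX and 3 from control cells, which the sample labels call untreated while the treatment protocol names DMSO. Poly(A)-selected RNA was sequenced, and the 12 libraries held 9099313 to 11392715 counts in DLM8 and 2385102 to 3381831 in Gracie. The labels do not say whether replicates came from separate cultures. The p-values therefore cover only the spread between libraries, which may be technical.

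ID proteins are helix-loop-helix proteins without a DNA-binding region. They pair with E proteins and other basic helix-loop-helix factors and keep them from DNA, and their genes are direct targets of bone morphogenetic protein (BMP) signalling through SMAD1 and SMAD5, also in osteoblasts. The feedback genes limit the same pathway at several points. SMAD6 and SMAD7 are inhibitory SMADs that block receptors, SMURF1 is a ubiquitin ligase for SMADs and receptors, BAMBI is a receptor-like protein with no kinase domain, and SKIL (SnoN) and TGIF1 are corepressors that bind SMADs in the nucleus. Several of these proteins and transcripts are known to be short-lived.

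Mouse promoter windows are shown for Id2, which fell in DLM8, and for Id3 and Smurf1, whose responses differed between both lines. Id3 and Smurf1 were called in Gracie and not in DLM8, and no dog windows were read. The windows let SMAD-linked motifs near the mouse starts be read. RefSeq's promoter table (build GRCm38.p6, from 250 bases before to 50 after a gene's start) held windows for 6 of the 10 genes. Capitals mark matches, on either strand, to GGCGCC (a GC-rich site of BMP-activated SMADs), GTCTG (a SMAD box), GCCGNCGC (a BMP response motif) or TGACGTCA (the cAMP response element). The Id2 window lies on the minus strand at chr12:25096043-25096342, the Id3 window on the plus strand at chr4:136143572-136143871 and the Smurf1 window on the minus strand at chr5:144965781-144966080.
Id2: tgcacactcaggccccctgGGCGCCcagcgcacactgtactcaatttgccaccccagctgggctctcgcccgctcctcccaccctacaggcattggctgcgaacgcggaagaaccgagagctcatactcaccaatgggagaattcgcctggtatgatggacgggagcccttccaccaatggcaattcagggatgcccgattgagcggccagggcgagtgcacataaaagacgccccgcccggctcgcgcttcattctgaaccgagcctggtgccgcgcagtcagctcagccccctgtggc
Id3: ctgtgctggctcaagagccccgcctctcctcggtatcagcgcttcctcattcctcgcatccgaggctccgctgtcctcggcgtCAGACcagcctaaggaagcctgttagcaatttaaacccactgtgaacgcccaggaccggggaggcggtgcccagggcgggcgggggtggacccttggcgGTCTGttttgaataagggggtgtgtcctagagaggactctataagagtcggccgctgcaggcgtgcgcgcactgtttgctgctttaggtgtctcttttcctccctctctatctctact
Smurf1: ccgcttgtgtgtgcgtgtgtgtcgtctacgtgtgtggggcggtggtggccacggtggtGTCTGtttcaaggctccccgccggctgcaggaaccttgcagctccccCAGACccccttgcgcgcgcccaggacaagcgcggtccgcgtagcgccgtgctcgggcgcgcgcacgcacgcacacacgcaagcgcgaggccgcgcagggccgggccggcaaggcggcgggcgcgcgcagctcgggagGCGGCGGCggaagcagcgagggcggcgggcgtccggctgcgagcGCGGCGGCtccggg

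The Id2 window held 1 match to GGCGCC, a motif found in 11.9% of all 32851 windows of 300 bases. Id3 and Smurf1 each held 2 matches to the SMAD box, which was present in 49.6% of all windows. The window of Smad6, which also fell in DLM8, is not printed and held none of the 4 motifs. Smurf1 also held 2 matches to GCCGNCGC, found in 9.76% of all windows, and TGACGTCA (1.79% of all windows) was in none of the 3 printed windows. The window of Id4, also not printed, held 1 match to GGCGCC and 1 to GCCGNCGC, although Id4 had 0 counts in every library. The windows of Id2, Id3 and Smurf1 had a GC content of 63.3%, 60.0% and 76.3%, against a median of 52.7% over all windows. A match is only a match of letters and is not evidence of a bound site. In the GENCODE M21 annotation the mouse ID genes are compact, with gene spans from 1160 bases (Id1) to 4799 bases (Id4), against a median of 23658.5 bases over 11054 tested coding genes. Smad6 (68984 bases) and Smurf1 (89353 bases) are long.

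What a row of these tables measures needs a limit before the values. In DLM8 the row of mt-Nd6, encoded on the opposite mitochondrial strand to the other coding genes, had 49.9 to 94.1 times the median count of the other 12 mitochondrial coding rows, so rows may hold reads of the opposite strand. The strand setting of the counting is not given in the sources used here. Whether a gene's row follows its mRNA was therefore not tested, and rows of different genes are not compared by level. Below, a gene said to rise or fall is one whose row did. The same check could not be made in Gracie, where all 13 mitochondrial coding rows were at 0. The strand of the reads in its rows is thus not known, and the same limit applies to them. Of the 10 genes, Id4 alone overlaps annotated genes on the opposite strand in the mouse annotation (A330033J07Rik and Gm49291), while 53.2% of the 13728 tested genes with an annotated position do. Dog gene positions were not used here.

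Some libraries stood apart from the others of their group. Over all genes, DLM8 OMX replicate 1 differed from OMX replicates 2 and 3 with a chi-square per degree of freedom of 18.9 and 23.0, against 5.68 between those 2 replicates. DLM8 untreated replicate 1 differed from untreated replicates 2 and 3 by 11.3 and 14.5, against 4.98. In Gracie, untreated replicate 1 differed from the others of its group by 13.4 and 21.2, against 7.24, and OMX replicate 1 by 9.29 and 15.1, against 7.06. Without DLM8 untreated replicate 1 the genes called in DLM8 were 3 of the 10 in place of 6. Results that rest on 1 library are given with and without it.

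Rows of osteoblast markers held counts in DLM8, summing to 2118 to 2920 CPM untreated and 897 to 1344 CPM with OMX. Runx2 was at 711 to 1410 counts and Col1a1 at 1378 to 8229 counts per library. Gracie held RUNX2 at 40 to 88 counts and SP7 at 14 to 105 counts. Its osteoblast markers summed to 153 to 257 CPM untreated and 115 to 138 CPM with OMX. However, ALPL was at 0 in the untreated libraries and SPP1 at 0 in 5 of 6 libraries. Of the osteoblast marker rows, 2 of 12 in DLM8 (Ibsp and Dmp1) and 5 of 11 in Gracie stayed under 10 counts in every library. Leukocyte markers were mostly near 0 in both lines (7 of 9 in DLM8 and 5 of 7 in Gracie stayed under 10 counts in every library), with Ptprc at 0 to 2 counts in DLM8 and PTPRC at 0 in Gracie. Csf1r was the exception in DLM8, at 1017 to 2118 counts. The summed leukocyte level in DLM8 was 118 to 126 CPM untreated and 125 to 210 CPM with OMX, and in Gracie 5.03 to 6.62 and 4.93 to 12.4 CPM. Epithelial markers were at 0 in 4 of 6 rows in DLM8 and in all 4 rows of Gracie. Endothelial markers summed to 1.39 to 3.25 CPM untreated and 4.94 to 11.3 CPM with OMX in DLM8, and to 17.0 to 83.6 and 41.2 to 86.6 CPM in Gracie. Whether these rows follow the mRNA of the markers was not tested, so they do not settle which cells were present. The part of these marker levels in the results below was not tested.

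The question of each comparison was how the counts of each row differed after OMX, tested by edgeR's quasi-likelihood method. Genes were called at a Benjamini-Hochberg adjusted p under 0.05 over every gene tested. Levels are CPM, counts scaled to a common library size, and fold changes are log2 values of OMX against untreated with their standard error (SE). In DLM8, Skil and Smad7 rose, while Id1, Id2, Smad6 and Bambi fell, and Id3, Smurf1 and Tgif1 were not called. In Gracie ID1, ID3, SMAD7, SMURF1 and SKIL rose, none fell, and SMAD6 and TGIF1 were not called.

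Of the 9 genes tested in DLM8, 6 were called, 2 higher and 4 lower, where 35.3% of all 17109 tested genes were called (19.4% higher and 15.9% lower). The groups did not overlap in 8 of these 9 genes, against 49.0% of all genes. Of the 7 genes tested in Gracie, 5 were called, all higher, where 20.6% of all 10423 tested genes were called (12.5% higher and 8.06% lower). There the groups did not overlap in 6 of 7 genes, against 39.7% of all genes. For 1 gene, the smallest p of an exact permutation test (two-sided) in groups of 3 is 0.1.

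**Figure D1:**
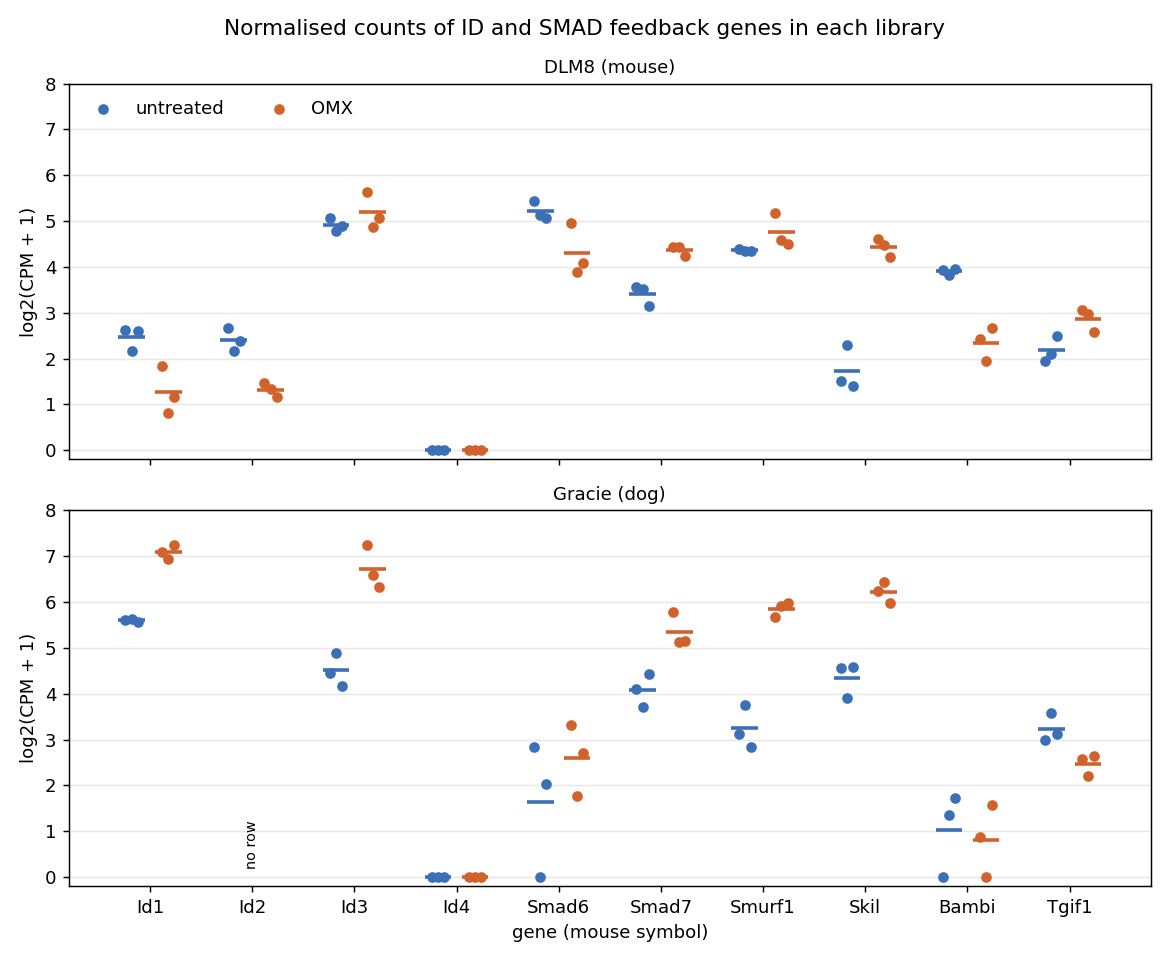
Normalised count of each gene in each of the 12 libraries, as log2(CPM + 1), with untreated libraries in blue and OMX libraries in orange; bars are means of the 3 plotted values. Id1 lies lower with OMX in DLM8 and higher in Gracie, Skil and Smad7 lie higher in both, and the rows of Id4 are at 0.

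The ID genes are taken first. In DLM8 the Id1 row (ENSMUSG00000042745) held 5.20, 3.51 and 5.11 CPM in the untreated libraries and 2.57, 0.755 and 1.25 CPM with OMX. All 3 OMX libraries lay below all untreated ones. Id1 fell 3.01-fold (log2 fold change -1.59, SE 0.50, adjusted p = 0.0267 by edgeR), from 4.61 ± 0.953 to 1.52 ± 0.938 CPM (SD, n = 3). These are low counts, 32 to 56 per untreated library and 8 to 26 with OMX, and the call was lost without untreated replicate 1 (adjusted p = 0.0743), untreated replicate 3 (0.0758), OMX replicate 2 (0.0928) or OMX replicate 3 (0.0729). In bulk RNA, fewer expressing cells and less RNA per cell cannot be told apart. Of the 2 DLM8 libraries that stood apart, untreated replicate 1 is thus one whose removal ends the call. Without the other, OMX replicate 1, the log2 fold change was -2.21 (adjusted p = 0.00506).

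ID1 of Gracie (ENSCAFG00000007045) moved the other way. Its row held 48.0, 48.3 and 46.4 CPM untreated and 136, 121 and 150 CPM with OMX. The untreated libraries lay close together and far below the OMX libraries. The rise was 2.85-fold, from 47.6 ± 0.990 to 136 ± 14.4 CPM (SD, n = 3). On the log2 scale this was 1.51 (SE 0.21, adjusted p = 0.000232 by edgeR). It kept its call without any 1 library (adjusted p of at most 0.00370).

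Id2, the family member whose protein also binds retinoblastoma protein, was measured in DLM8. Its row (ENSMUSG00000020644) held 5.38, 3.51 and 4.18 CPM untreated and 1.78, 1.51 and 1.25 CPM with OMX, without overlap. Id2 fell 2.87-fold (log2 fold change -1.52, SE 0.43, adjusted p = 0.0161 by edgeR), much like Id1. The call was lost when untreated replicate 1 (adjusted p = 0.0657) was left out, and when OMX replicate 3 was (0.0509).

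Id3, like Id1 a BMP target, was not called in DLM8. Its row (ENSMUSG00000007872), with 242 to 348 counts per untreated library, held 32.3, 26.5 and 28.6 CPM untreated and 48.7, 28.3 and 32.6 CPM with OMX. The groups overlapped, and OMX replicate 1 was the highest library. The log2 fold change of 0.33 (SE 0.21, adjusted p = 0.262) had a 95% interval of -0.09 to 0.75, and it was 0.05 (adjusted p = 0.862) without OMX replicate 1. In Gracie the ID3 row (ENSCAFG00000013269) held 20.9, 28.8 and 17.0 CPM untreated and 151, 95.0 and 79.8 CPM with OMX. Every OMX library lay well above the untreated ones, and OMX replicate 1 was the highest. ID3 rose 4.87-fold (log2 fold change 2.28, SE 0.30, adjusted p = 0.000166 by edgeR), and by 1.96 to 2.49 on the log2 scale when any 1 library was left out.

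Id4, which encodes the fourth member of the family, had 0 counts in all 6 libraries of DLM8, and so did ID4 in Gracie. A count of 0 allows up to 3 counts per library, which is 0.278 to 0.349 CPM in DLM8 and 0.908 to 1.23 CPM in Gracie. Such floors and all counting intervals given here cover counting error only. They take counts as independent, while most nonzero counts were even, so they may be too narrow.

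Among the inhibitory SMADs, Smad7 rose in both lines. SMAD7 blocks the receptors of both TGF-beta and BMP ligands. In DLM8 its row (ENSMUSG00000025880) held 10.9, 10.4 and 7.90 CPM untreated and 20.7, 20.5 and 17.9 CPM with OMX, without overlap. The rise was 2.02-fold (log2 fold change 1.01, SE 0.22, adjusted p = 0.00369 by edgeR). Gm20544, a non-coding gene just upstream of Smad7 on the opposite strand that was picked after its values were seen, went from 18 to 22 counts per untreated library to 44 to 73 with OMX (log2 fold change 1.43, SE 0.39, adjusted p = 0.0131).

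In Gracie the SMAD7 row (ENSCAFG00000019069) held 16.3, 12.1 and 20.5 CPM untreated and 53.8, 34.2 and 34.5 CPM with OMX. The groups were apart, and OMX replicate 1 was the highest library. SMAD7 rose 2.50-fold (log2 fold change 1.32, SE 0.32, adjusted p = 0.0104 by edgeR), a call lost when untreated replicate 2 (adjusted p = 0.0532) was left out, and when OMX replicate 1 was (0.0626).

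Smad6, which acts mainly on BMP receptors and SMAD1, went down in DLM8. The row (ENSMUSG00000036867) held 42.5, 34.0 and 32.5 CPM untreated and 30.1, 13.8 and 16.0 CPM with OMX. OMX replicate 1 lay just under the lowest untreated library, and the other 2 OMX libraries lay far below. Smad6 fell 1.82-fold (log2 fold change -0.87, SE 0.27, adjusted p = 0.0255 by edgeR), and without OMX replicate 1 the value was -1.31 (adjusted p = 0.000223). The call was lost without untreated replicate 1 (adjusted p = 0.0868), untreated replicate 2 (0.0566), OMX replicate 2 (0.104) or OMX replicate 3 (0.0792), and with library-size scaling (0.0585). In Gracie the SMAD6 row (ENSCAFG00000017332) held low counts, 16, 0 and 8 untreated and 22, 8 and 17 with OMX. The groups overlapped (log2 fold change 0.84, SE 0.92, adjusted p = 0.553), with a 95% interval of -0.96 to 2.64.

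Smurf1 encodes a ubiquitin ligase that marks SMAD1, SMAD5 and, with SMAD7, the receptors for degradation. In DLM8 its row (ENSMUSG00000038780) held 20.1, 19.4 and 19.3 CPM untreated and 35.5, 23.0 and 21.6 CPM with OMX. The OMX libraries all lay above the untreated ones, but 2 of them only slightly. The log2 fold change was 0.44 (SE 0.22, adjusted p = 0.134), and without OMX replicate 1 it was 0.17 (adjusted p = 0.507). The 95% interval of 0.02 to 0.87 is a normal approximation and is too narrow for groups of 3. By edgeR's own test the unadjusted p was 0.0637, which does not set the value apart from 0. When only rows facing no annotated gene were tested, an alternative chosen after seeing the data, the log2 fold change was 0.56 and called (adjusted p = 0.0445).

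In Gracie the SMURF1 row (ENSCAFG00000015133) held 7.75, 12.5 and 6.19 CPM untreated and 50.1, 59.3 and 62.2 CPM with OMX. SMURF1 rose 6.48-fold (log2 fold change 2.70, SE 0.32, adjusted p = 7.1e-05 by edgeR), the 237th largest rise of 10423 genes. No untreated library came near the OMX libraries, and the call held without any 1 library (adjusted p of at most 0.00104).

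The corepressor gene Skil had the largest rise of the 9 tested genes in DLM8. SKIL binds SMAD2, SMAD3 and SMAD4 and is itself a TGF-beta target gene. The Skil row (ENSMUSG00000027660) held 1.86, 3.95 and 1.63 CPM untreated and 23.3, 21.2 and 17.6 CPM with OMX, far apart. Skil rose 8.35-fold, from 2.48 ± 1.28 to 20.7 ± 2.86 CPM (SD, n = 3). This was 3.06 on the log2 scale (SE 0.33, adjusted p = 2.91e-05 by edgeR) and the 512th largest rise of 17109 genes. In Gracie the SKIL row (ENSCAFG00000014846) held 22.5, 14.0 and 22.8 CPM untreated and 75.1, 85.9 and 62.6 CPM with OMX. SKIL rose 3.76-fold there (log2 fold change 1.91, SE 0.27, adjusted p = 0.000309 by edgeR). Both calls held without any 1 library, at adjusted p of at most 0.000348 in DLM8 and 0.00435 in Gracie.

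Tgif1, the homeobox corepressor, was called in neither line. The mouse row (ENSMUSG00000047407) held 2.88, 3.29 and 4.65 CPM untreated and 7.41, 6.80 and 4.98 CPM with OMX. The OMX libraries lay above the untreated ones, the nearest pair by a narrow margin. The log2 fold change was 0.83 (SE 0.35, adjusted p = 0.0825), and it was called with library-size scaling (0.98, adjusted p = 0.0463) and over rows facing no annotated gene (0.94, adjusted p = 0.05, just under the threshold). In Gracie TGIF1 (ENSCAFG00000018511) held 18, 28 and 20 counts untreated and 12, 12 and 16 with OMX. These OMX libraries lay below the untreated ones once scaled, at -0.89 on the log2 scale (SE 0.57, adjusted p = 0.289).

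Bambi, itself induced by BMP and TGF-beta and able to dampen both at the receptor, fell in DLM8. Its row (ENSMUSG00000024232) held 14.3, 13.2 and 14.4 CPM untreated and 4.35, 2.83 and 5.40 CPM with OMX, wide apart. Bambi fell 3.33-fold (log2 fold change -1.74, SE 0.29, adjusted p = 0.000645 by edgeR), the 298th largest fall of 17109 genes. It kept its call without any 1 library (adjusted p of at most 0.00404). In Gracie the BAMBI row (ENSCAFG00000030262) held 0, 4 and 6 counts untreated and 2, 0 and 6 with OMX. It did not pass the filter, and a difference was not detectable at this depth.

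**Figure D2:**
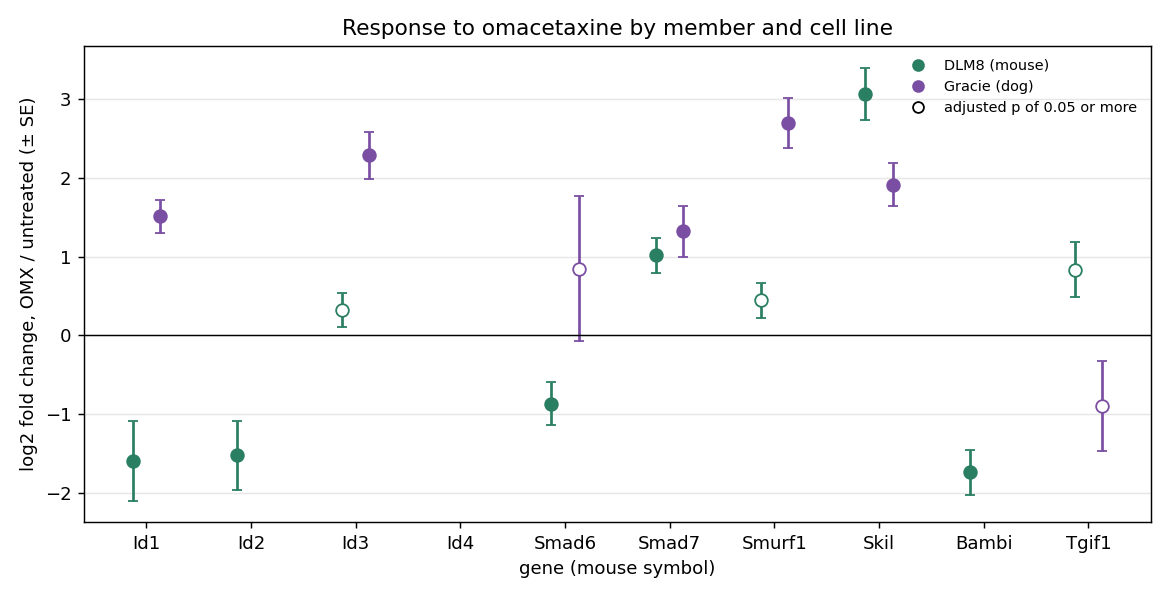
Log2 fold change of OMX against untreated, with its SE, for each tested gene in DLM8 (green) and Gracie (purple); open circles have an adjusted p of 0.05 or more. In DLM8 the values run from -1.74 (Bambi) to 3.06 (Skil), and in Gracie from -0.89 (TGIF1) to 2.70 (SMURF1).

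Whether both lines responded differently was tested by the interaction of line and treatment over 7566 genes that share a symbol and were tested in both lines. The comparisons in the 2 lines share no libraries. Of the 7 genes in this test, 3 were called (ID1, ID3 and SMURF1), where 12.1% of all 7566 genes were. For ID1 the log2 fold change in DLM8 minus that in Gracie was -3.10 (SE 0.42, adjusted p = 0.000100 by edgeR), the 33rd smallest p of the test, and the 2 lines moved in opposite directions. For SMURF1 it was -2.26 (SE 0.39, adjusted p = 0.0008) and for ID3 -1.96 (SE 0.39, adjusted p = 0.00261), both from a rise in Gracie next to an uncalled value in DLM8. These 3 calls held under every alternative run, with adjusted p of at most 0.000550, 0.00363 and 0.00918.

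The other 4 differences were not called. For SMAD7 the difference was -0.31 (SE 0.39, adjusted p = 0.675), with a 95% interval of -1.07 to 0.46. For SKIL it was 1.14 (SE 0.43, adjusted p = 0.0880), and it was called with library-size scaling (1.42, adjusted p = 0.037) and without DLM8 untreated replicate 2 (1.62, adjusted p = 0.0226). For TGIF1 it was 1.73 (SE 0.61, adjusted p = 0.0716), called with library-size scaling (2.00, adjusted p = 0.0381). For SMAD6 it was -1.69 (SE 0.78, adjusted p = 0.178), called without Gracie untreated replicate 1 (-2.67, adjusted p = 0.0461). The replicate block also called it (-1.94, adjusted p = 0.0334). The depth of both lines differed, and line, species, annotation and depth cannot be told apart in this test.

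**Figure D3:**
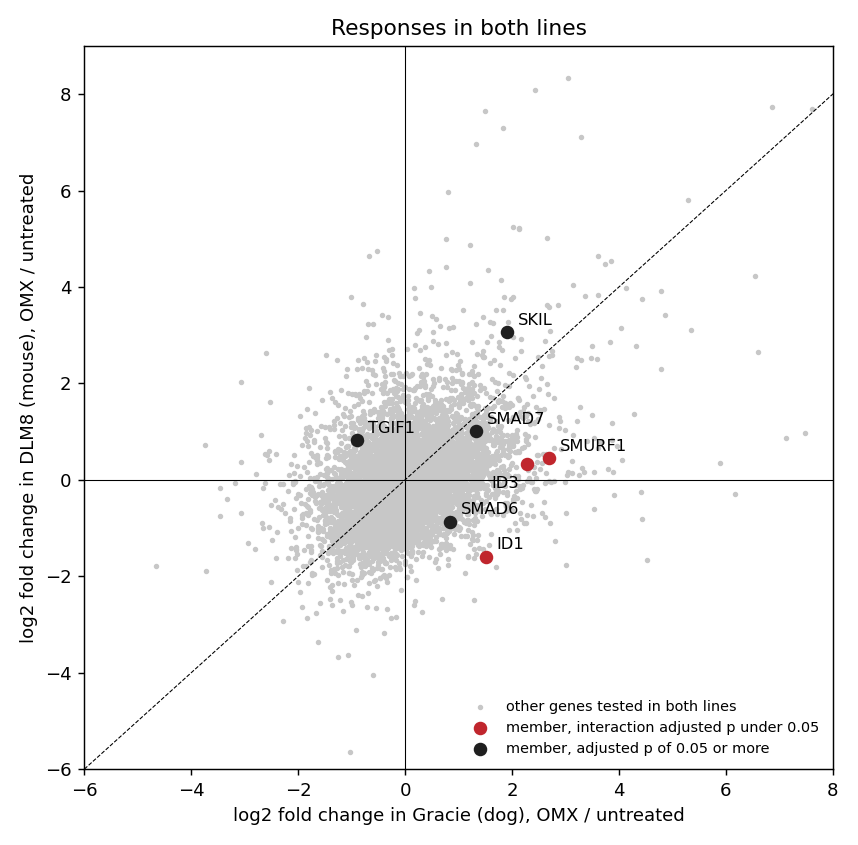
Log2 fold change in DLM8 against that in Gracie for the 7566 genes tested in both lines (grey), with the 7 genes described here named; red marks the 3 whose interaction was called, and the dashed line marks equal responses. ID1 lies below 0 in DLM8 and above 0 in Gracie, while SKIL and SMAD7 lie above 0 in both.

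The genes with the most similar course over the 12 libraries were found by Pearson's r of log2 CPM centred within each line, among 7564 genes, as a description. For ID1 these were SRXN1 (r = 0.966), the proteoglycan gene CSPG4 (0.943) and the corepressor gene CTBP2 (0.939). Each had a negative log2 fold change in DLM8 (-1.14, -0.97 and -0.71) and a positive one in Gracie (0.72, 0.97 and 0.98). For SMAD7 they were the nuclear receptor gene NR4A3 (r = 0.975), NUB1 (0.964) and the glutathione peroxidase gene GPX3 (0.961), with log2 fold changes of 3.99, 0.99 and 1.46 in DLM8 and 4.13, 1.44 and 2.60 in Gracie.

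The rest of the pathway was read from lists chosen by role. Ligand genes of the TGF-beta family had 5 of 14 tested genes higher and 1 lower in DLM8, where 19.4% and 15.9% of all genes were, and the median log2 fold change was 0.07 against 0.02 for all genes. The number higher was 3 without untreated replicate 3 or OMX replicate 2, and the 1 lower gene was lost without untreated replicate 3. Bmp4, a BMP ligand that induces ID genes, rose from 30.8 ± 4.04 to 69.9 ± 1.95 CPM (SD, n = 3), which is 1.18 on the log2 scale (SE 0.16, adjusted p = 0.000148). Tgfb2 rose by 1.28 (SE 0.16) and Bmp8b by 0.47 (SE 0.12). In Gracie 2 of 6 were higher and 1 lower (12.5% and 8.06% of all genes), with a median of -0.15 against -0.01 for all genes, and 2 were lower without untreated replicate 1 or OMX replicate 1. TGFB2 fell there by 1.27 (SE 0.28, adjusted p = 0.00582), while INHBA, the activin A subunit gene, rose by 2.25 (SE 0.52). TGFB3 went from 3 counts over all untreated libraries to 57 with OMX, a ratio of 16.7 (95% interval 5.43 to 83.3). This interval leaves out the spread between libraries, and it takes counts as independent although most nonzero counts were even. By edgeR the log2 fold change of TGFB3 was 3.92 (SE 0.92, adjusted p = 0.00826).

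Receptor genes had 1 of 12 higher and 2 lower in DLM8, and 1 of 12 higher and 1 lower in Gracie. Thus 3 of 12 were called in DLM8 and 2 of 12 in Gracie, near the 35.3% and 20.6% of all genes for so few genes. In DLM8 only 1 was lower without any one of untreated replicates 1, 2 and 3 and OMX replicates 1 and 2. There 3 were lower without OMX replicate 3. In Gracie the lower call was lost without untreated replicate 2, and 2 were higher without untreated replicate 1. The activin receptor gene Acvr2a rose in both, by 1.02 (SE 0.21) in DLM8 and 2.10 (SE 0.48) in Gracie. Tgfbr1, the type I TGF-beta receptor gene, fell by 1.06 (SE 0.26) in DLM8, as did Acvr1b by 1.21 (SE 0.44), and ACVRL1 fell by 1.51 (SE 0.35) in Gracie. The medians were -0.45 in DLM8 and -0.38 in Gracie.

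Of the 6 genes of receptor-regulated SMADs and SMAD4, 2 were higher in DLM8 and 3 in Gracie, with 0 lower in either. Over all genes 19.4% were higher and 15.9% lower in DLM8, and 12.5% and 8.06% in Gracie. In DLM8 the number was 1 without untreated replicate 2, untreated replicate 3 or OMX replicate 1. Smad3, the TGF-beta and activin SMAD, rose from 7.80 ± 3.13 to 28.2 ± 1.82 CPM in DLM8 (log2 fold change 1.86, SE 0.27, adjusted p = 0.00026) and from 20.9 ± 2.05 to 55.2 ± 4.76 CPM in Gracie (1.40, SE 0.25, adjusted p = 0.00168; SD, n = 3). Smad9, a BMP SMAD, rose by 0.94 (SE 0.27) and 1.40 (SE 0.31), and SMAD2 by 1.86 (SE 0.31) in Gracie. The median of the 6 genes was 0.43 in DLM8 and 1.07 in Gracie.

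Secreted antagonists and latency proteins had 1 of 13 higher and 3 lower in DLM8 (median -0.11), and 2 of 14 higher and 2 lower in Gracie (median -0.37). In all, 4 of 13 and 4 of 14 were called, where 35.3% and 20.6% of all genes were. In DLM8 5 were lower without OMX replicate 1, and 2 without untreated replicate 2, untreated replicate 3 or OMX replicate 2. In Gracie 1 was higher without OMX replicate 2, and 1 was lower without untreated replicate 1, untreated replicate 2, OMX replicate 2 or OMX replicate 3. There 3 were lower without untreated replicate 3. Fstl1, a follistatin-like gene, fell in both lines, by 0.76 (SE 0.16) in DLM8 and 3.45 (SE 0.52) in Gracie. Ltbp2, for a latent TGF-beta binding protein, rose by 1.96 (SE 0.23) and Ltbp4 fell by 0.87 (SE 0.22) in DLM8. CHRDL2, a chordin-like gene, rose by 3.59 (SE 0.61) and FSTL3 by 1.04 (SE 0.26) in Gracie.

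Other negative regulators of SMAD signalling had 6 of 15 higher and 2 lower in DLM8 (median 0.55), and 2 of 14 higher and 1 lower in Gracie (median 0.20). Over all genes 19.4% were higher and 15.9% lower in DLM8, and 12.5% and 8.06% in Gracie. The number higher in DLM8 was 2 without untreated replicate 2 and 3 without OMX replicate 2. In Gracie it was 0 without untreated replicate 2 or OMX replicate 2, and 1 without untreated replicate 3, OMX replicate 1 or OMX replicate 3. Without Gracie untreated replicate 1 it was 3. Fkbp1a, whose protein keeps type I receptors inactive, fell by 1.16 (SE 0.17) in DLM8 and 1.02 (SE 0.24) in Gracie, and Zeb1 rose by 1.76 (SE 0.36) and 1.04 (SE 0.26). Strap fell by 0.84 (SE 0.17) in DLM8, and ZEB2 rose by 0.97 (SE 0.29) in Gracie. Positive regulators had 2 of 10 higher in DLM8 and 2 of 11 in Gracie, with 0 lower in both (medians 0.18 and 0.32), near the 19.4% and 12.5% of all genes. Only 1 was higher in DLM8 without untreated replicate 2, untreated replicate 3 or OMX replicate 2, and in Gracie without untreated replicate 2 or OMX replicate 1. In Gracie 3 were higher without untreated replicate 1, and 1 was lower without untreated replicate 1 or OMX replicate 3. The 2 genes called higher with all libraries were the coactivator genes Crebbp and Ep300 in each line. Their values were 1.31 (SE 0.25) and 0.54 (SE 0.15) in DLM8 and 1.40 (SE 0.21) and 1.21 (SE 0.29) in Gracie.

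Genes induced through SMADs had 9 of 20 higher and 2 lower in DLM8 (median 0.35), and 11 of 15 higher and 0 lower in Gracie (median 1.53). Over all genes 19.4% were higher and 15.9% lower in DLM8, and 12.5% and 8.06% in Gracie. Many of them also answer to other stimuli. Gadd45b, a stress-response gene, rose from 2.68 ± 0.755 to 152 ± 6.40 CPM in DLM8 (log2 fold change 5.81, SE 0.21) and from 14.1 ± 1.36 to 553 ± 20.8 CPM in Gracie (5.29, SE 0.22; SD, n = 3). Klf10, a TGF-beta-induced repressor gene, rose by 4.47 (SE 0.26) and 3.73 (SE 0.27). Junb rose by 2.87 (SE 0.23) in DLM8 and 1.53 (SE 0.20) in Gracie, and Ets1 by 1.85 (SE 0.26) and 1.71 (SE 0.22); the Gracie value of JUNB and the DLM8 value of Ets1 lie outside the naming rule and were added after they were seen. With 1 library left out, the number higher ran from 7 to 10 in DLM8 and from 7 to 11 in Gracie, where it was 7 without untreated replicate 2, OMX replicate 1 or OMX replicate 2. The number lower in DLM8 was 5 without OMX replicate 1 and 1 without any one of the others except untreated replicate 3.

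The partners and targets of ID proteins had 0 of 13 higher and 4 lower in DLM8 (median -0.35), and 1 of 7 higher and 1 lower in Gracie (median 0.03). Over all genes 19.4% were higher and 15.9% lower in DLM8, and 12.5% and 8.06% in Gracie. Without DLM8 OMX replicate 1 the number lower in DLM8 was 6. Hand1, a basic helix-loop-helix factor gene, fell from 74.6 ± 5.60 to 11.2 ± 0.969 CPM in DLM8 (SD, n = 3), or -2.73 on the log2 scale (SE 0.17, adjusted p = 3.8e-07). Tcf3, which encodes the E proteins E12 and E47, fell by 0.98 (SE 0.19), and Twist1 by 1.86 (SE 0.39). The fourth gene that fell was Scx, a tendon factor gene named after its values were seen, by 1.71 (SE 0.43). In Gracie BHLHE40 rose by 1.46 (SE 0.39), a call lost without untreated replicate 2, OMX replicate 1 or OMX replicate 2. MAX fell by 1.06 (SE 0.35), a call lost in every such fit except that without OMX replicate 1.

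Of the 26 pathway and marker genes chosen by rule in DLM8, 8 face an annotated gene on the opposite strand (Tgfb2, Bmp4, Bmp8b, Acvr2a, Ltbp2, Zeb1, Junb and Cdh5), and which gene's reads their rows hold was not tested. When 1 library was left out, 22 of the 26 kept their call in every case, the exceptions being Bmp8b, Acvr1b, Smad9 and Ep300 (highest adjusted p 0.0575, 0.145, 0.0799 and 0.0789). In Gracie 16 of 23 did, the exceptions being ACVRL1, FSTL3, ZEB1, ZEB2, EP300, BHLHE40 and MAX (highest adjusted p 0.0572, 0.053, 0.0809, 0.133, 0.0674, 0.103 and 0.148).

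**Figure D4:**
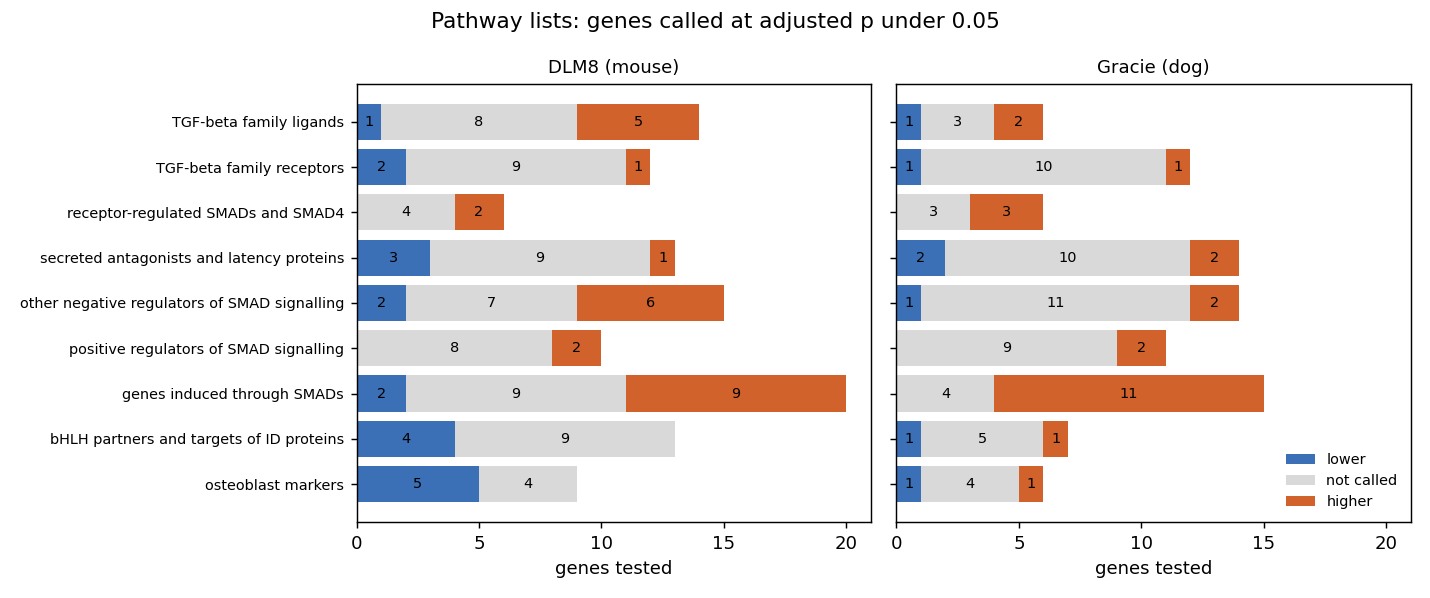
Number of tested genes of each list called lower (blue), not called (grey) and called higher (orange) in DLM8 (left) and Gracie (right). Genes induced through SMADs held the most higher calls in both lines, 9 of 20 in DLM8 and 11 of 15 in Gracie, and the partners of ID proteins held 0 higher and 4 lower in DLM8. Of all tested genes, 19.4% were higher and 15.9% lower in DLM8, and 12.5% and 8.06% in Gracie.

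**Figure D5:**
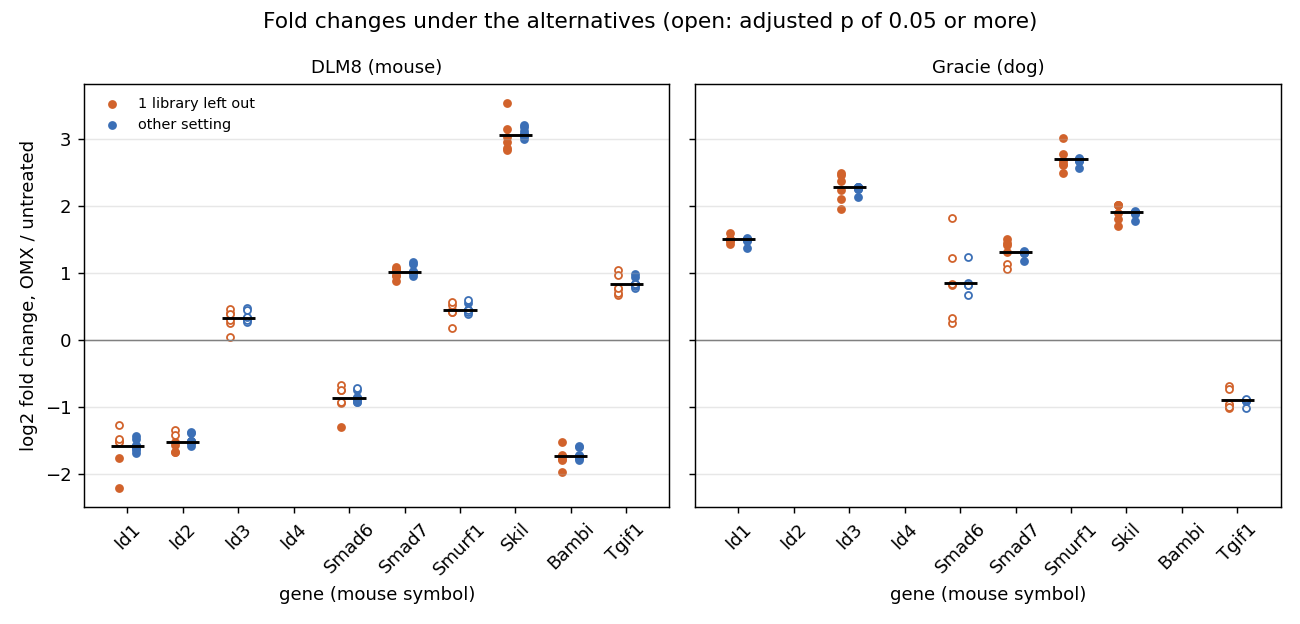
Log2 fold change of each gene under every alternative, with 1 library left out (orange) or another scaling, filter, test or block (blue); open circles have an adjusted p of 0.05 or more and black bars mark the reported values. Within a line, all points of a gene lie on one side of 0, and Id1, Id2 and Smad6 in DLM8 and SMAD7 in Gracie lose their call when certain single libraries are left out.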

How the data were processed

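The deposited files hold counts of reads for each gene (whole numbers), made by the authors with STAR, featureCounts and Subread on the builds CanFam3.1, mm39 and GRCm39, per the submitters' processing notes. Not given in the sources used here: versions, strand setting and how read pairs were counted. Most nonzero counts were even (67.7% to 73.7% per library), so counts may not be independent, and halved counts were an alternative.

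Columns were matched to samples by library name (0 were left over). The 2 lines were fitted separately across all genes (edgeR 4.0.16, R 4.3.3): filterByExpr, TMM scaling, quasi-likelihood F-test and Benjamini-Hochberg adjustment, with SE as the absolute log2 fold change over the square root of F and 95% intervals from a normal approximation. The interaction used library sizes and TMM factors of each line. DESeq2 1.42.0 served as an alternative. Likeness used log2 CPM with a prior count of 2. Genes of each list are named where they are among the 3 called genes with the smallest p. The genes and lists were chosen with earlier results of these data known. The GENCODE M21 mouse annotation differs in build from the table and gave only lengths, strands and neighbours. Scripts were tested on simulated data. No 2 libraries agreed within sampling noise (chi-square per degree of freedom of at least 4.98).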

Additional observations from a re-analysis of the deposited data

Results flagged for a closer look

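The 3 results below are listed because the responses of both lines differed by the interaction test. ID1 had a log2 fold change in DLM8 minus that in Gracie of -3.10 (adjusted p = 0.000100 by edgeR), with 3 of 3 OMX libraries below the untreated ones in DLM8 and 3 of 3 above in Gracie. SMURF1 had a difference of -2.26 (adjusted p = 0.0008), and the OMX libraries lay above the untreated ones in both lines. ID3 had a difference of -1.96 (adjusted p = 0.00261), with overlapping groups in DLM8 and 3 of 3 OMX libraries above the untreated ones in Gracie. Groups of 3 libraries were not tested for single outlying libraries.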

How the results depend on the processing

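No alternative turned the direction of any tested gene of the 10: of 135 alternative values in DLM8 121 stayed on their side of the threshold, 11 lost and 3 gained a call, in Gracie 93 of 95 stayed and 2 lost it, and of 117 interactions 112 stayed and 5 gained a call. The number of these genes called was 6 in DLM8, 3 to 6 with 1 library left out (3 without untreated replicate 1 or OMX replicate 3) and 6 to 8 otherwise. In Gracie it was 5, 4 to 5 with 1 library left out and 5 under every other setting. All genes called numbered 6037 in DLM8 (4564 to 6888 with 1 library left out), 2148 in Gracie (1222 to 2387, the lowest without OMX replicate 2) and 914 in the interaction (654 to 999). Scaling by library size moved the median of all genes by 0.14 in DLM8 and -0.13 in Gracie, and the share of higher calls from 54.8% to 66.6% and from 60.9% to 47.4%, so directions are relative to the middle of all genes; in DLM8 it gave 3 higher and 3 lower of the 10 genes, Smad6 losing and Tgif1 gaining a call. The cause was not tested. The replicate block gave 6846 calls in DLM8, 2437 in Gracie and 1124 interactions; of the 10 genes it changed 1 call, that of the SMAD6 interaction. Deviations of same-numbered libraries correlated at 0.20, 0.04 and 0.11 in DLM8 and 0.13, -0.02 and 0.18 in Gracie. Those of differently numbered libraries ran from -0.16 to 0.06 in DLM8 and from -0.17 to 0.03 in Gracie. In each line 1 untreated library correlated best with another number. Whether libraries of the same number share a batch was not tested. Low counts limit Id1, Id2 and Tgif1 in DLM8 and SMAD6, TGIF1 and BAMBI in Gracie.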

Other observations

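Rows of osteoblast markers also differed after OMX. In DLM8 5 of 9 tested osteoblast markers fell and 0 rose, with a median log2 fold change of -0.85, where 15.9% of all genes were lower and 19.4% higher. Spp1, the osteopontin gene, fell by 2.01 (SE 0.18), Col1a2, a chain of type I collagen, by 1.52 (SE 0.14) and Alpl, the alkaline phosphatase gene, by 1.56 (SE 0.17). In Gracie 1 of 6 tested markers rose and 1 fell (12.5% and 8.06% of all genes), and 2 fell without untreated replicate 3. SP7, the osteoblast transcription factor gene, rose, its untreated level of 5.95 ± 0.430 CPM reaching 30.5 ± 1.32 CPM (SD, n = 3; log2 fold change 2.35, SE 0.35, adjusted p = 0.000428 by edgeR), and SPARC fell by 2.15 (SE 0.37). In DLM8 Sp7 was not called (log2 fold change -0.52, SE 0.21, adjusted p = 0.0725 by edgeR). The same gene is also counted above among the genes induced through SMADs.

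Cdh5, the VE-cadherin gene of endothelial cells, had 0 counts in the untreated DLM8 libraries and 14, 36 and 49 in the treated ones. The summed OMX count, taken as exact, was 31.0-fold higher than a floor of 3 counts for the whole untreated group. This value leaves out the spread between the OMX libraries and is not a lower bound. Counts may also not be independent, as most nonzero counts were even. Cdh5 faces the non-coding gene Gm29682. Of the 7 endothelial marker rows in DLM8, 4 were at 0 in all libraries and 2 were tested; the other tested gene, Vwf, had a log2 fold change of 1.07 (adjusted p = 0.0926).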
